A study of Mus musculus with 21 samples.

Results

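The BCL2 family was examined in murine pancreatic ductal adenocarcinoma (PDAC) cell lines that had become resistant to trametinib, an inhibitor of the kinases MEK1 and MEK2. Its members were taken by gene symbol, with no threshold on a measured value. They were the antiapoptotic genes Bcl2, Bcl2l1 and Mcl1, the BH3-only genes Bcl2l11, Bmf, Bbc3, Pmaip1 and Bid, and the effector genes Bax and Bak1. These 10 genes were among 34478 in the table, and all 10 were among the 19300 genes that passed the filter on low values.

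The cells were low-passage primary lines, numbered #3, #4, #6, #7, #9 and #10, from tumors of genetically engineered mice that carried Ptf1a wt/Cre and Trp53 loxP/loxP among their alleles. In this model, Cre from the Ptf1a locus deletes floxed Trp53 in the pancreatic lineage, and all 4 states of a line carried the same alleles. Parental cells had not met the drug, whereas resistant cells were adapted to rising doses and then kept in 100 times their IC50 of trametinib. P12 cells were resistant cells passaged without drug (12 passages). All of these states were sequenced once in each of the 6 lines. P5 cells (5 passages without drug) were sequenced from lines #3, #7 and #9, and for the last 2 of these the labels also give 12 passages. The resistant populations were selected under the drug, and a change in all cells and the outgrowth of a clone cannot be told apart in these RNA data. Only the resistant cells were kept in the drug, so acquired resistance and the presence of the drug cannot be told apart either.

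BCL2 family proteins decide at the outer mitochondrial membrane whether a cell undergoes intrinsic apoptosis. BCL2, BCL-XL (the product of Bcl2l1) and MCL1 hold the effectors BAX and BAK in check, BH3-only proteins such as BIM (Bcl2l11), BMF, PUMA (Bbc3), NOXA (Pmaip1) and BID bind the guardians or activate the effectors, and oligomers of BAX and BAK release cytochrome c to start the caspase cascade. In tumor cells with an active MAPK pathway, ERK signalling is known to phosphorylate BIM and mark it for degradation, and blocking MEK is known to raise BIM and BMF in several tumor types. Many of these steps act on the proteins, which RNA does not measure.

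Bcl2 and Bcl2l1 were the members whose RNA fell in the resistant cells and rose again in P12. Their promoters are shown because they moved together and because DNA methylation was a subject of the study. Each window runs from 250 bases before to 50 bases after a RefSeq transcription start on mm10 (GRCm38), read 5′ to 3′ on the strand of the gene, with CpG dinucleotides in capitals. Of the members, 9 had at least 1 such window, 16 windows in all. The Bcl2 window lies at chr1:106714241-106714540 on the minus strand and spans the start of a gene at chr1:106538176-106714290. Bcl2l1 (chr2:152758732-152833803, minus strand) has 3 windows, of which the one with the most CpG dinucleotides, at chr2:152831679-152831978, is printed.
Bcl2: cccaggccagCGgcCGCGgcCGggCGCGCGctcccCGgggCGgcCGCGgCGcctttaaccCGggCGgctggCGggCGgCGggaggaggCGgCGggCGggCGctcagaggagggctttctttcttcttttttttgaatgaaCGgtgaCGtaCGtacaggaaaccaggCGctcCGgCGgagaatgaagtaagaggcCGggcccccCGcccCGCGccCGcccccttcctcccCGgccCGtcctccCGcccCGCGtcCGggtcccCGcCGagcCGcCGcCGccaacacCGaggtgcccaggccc
Bcl2l1: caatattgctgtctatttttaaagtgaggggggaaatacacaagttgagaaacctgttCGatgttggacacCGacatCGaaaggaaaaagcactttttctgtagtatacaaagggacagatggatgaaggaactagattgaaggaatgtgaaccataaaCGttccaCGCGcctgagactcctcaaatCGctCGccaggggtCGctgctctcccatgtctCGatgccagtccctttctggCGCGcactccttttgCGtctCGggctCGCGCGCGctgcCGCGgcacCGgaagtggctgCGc
The Bcl2 window held 44 CpG dinucleotides, the most of the 16 member windows, at 76.0% GC. The Bcl2l1 window held 22 at 52.3% GC, and its other windows held 14 and 1. The median over all 32851 windows was 7 CpG dinucleotides and 52.7% GC. Among the other members, the Bbc3 windows held 30 to 39 (up to 78.0% GC), those of Bcl2l11 27 and 38, and that of Mcl1 33. The windows of Bid, Bax and Bak1 held 22, 19 and 11, and those of Bmf 6 to 13. Members not called lower in resistant cells thus also had windows rich in CpG. Methylation was not measured in the table used here.

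The windows were searched on both strands for TGTTTAC, bound by FOXO factors, TGANTCA, bound by AP-1, and CACGTG, the E-box bound by MYC and others. Of all windows, 3.65% held the first, 7.81% the second and 7.15% the third. The Bcl2 window and the 3 Bcl2l1 windows held none of these letters. TGTTTAC was found 227 bases upstream of the start in a Bcl2l11 window (chr2:128125788-128126087, plus strand) and 167 bases upstream in a Bbc3 window (chr7:16310011-16310310, plus strand). CACGTG was found in another Bbc3 window and in that of Bax, and TGANTCA in no member window. A match is a description of the letters and not of binding.

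Libraries held an estimated 24.1 to 42.6 M reads (M for mega), and 3 reads were worth 2.31 to 4.07 normalized counts. The output genes of the MAPK pathway, on which trametinib acts, followed the labels. Dusp6, a phosphatase of ERK, lay between 5249 and 9449 normalized counts in parental cells and between 4.49 and 681.3 in resistant cells. Spry4 fell by 8.27 and Etv4 fell by 10.46 on the log2 scale between these states. In resistant cells they measured 0 to 7.12 and 0 to 4.58, near the floor of 3 reads, so the size of these falls depends on the pseudocount. All 6 listed output genes rose in P12 against resistant cells. Trp53 lay between 178.4 and 474.6 in every sample, and reads of its floxed exons were not told apart from others. The cells were labelled as pancreatic cancer lines. Of the 7 ductal markers, Epcam was at 0 in 20 of 21 samples and at 3.61 in the other. It was thus near absent in every state, and the sums of this list came from the other markers. The 7 ductal markers summed to a median of 248020 in parental, 62680 in resistant and 52763 in P12 cells. Their ranges were 18363 to 283580, 1692.6 to 210020 and 3929.5 to 209600. The 6 fibroblast markers summed to medians of 469.1, 89501 and 26168, with ranges of 112.1 to 10431, 1890 to 504000 and 243.6 to 124110. Both sums thus overlapped between the states. The 4 endothelial markers summed to medians of 55.4, 382.7 and 91.3 in these states. Their ranges were 36.8 to 165.7, 15.8 to 2753 and 61.1 to 231.3. Cdh5 was at or under 3 reads in every resistant sample, so the higher sums there came from the other markers of this list. Leukocyte markers summed to at most 423.5, acinar markers to at most 931.2, and Ptf1a was at or under 3 reads in every sample. In bulk RNA, fewer cells of a type and less RNA per cell cannot be told apart, and the part of the marker shifts in the results below was not tested.

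Bcl2, the founding antiapoptotic member, had the largest change of the 10 between parental and resistant cells. In parental cells of lines #3, #4, #6, #7, #9 and #10 it measured 1164, 1105, 1094, 1182, 1794 and 984.2 normalized counts. In resistant cells of the same lines it measured 25.5, 123.9, 174.6, 179.2, 167.3 and 133.3. The highest resistant sample was far below the lowest parental one, and line #3 was lowest among the resistant cells. Bcl2 fell by 3.38 on the log2 scale (SE 0.388, adjusted p = 2.36e-05), a level 10.4-fold lower, and was lower in 6 of 6 lines. After 12 passages without drug it measured 1192, 2514, 1159.55, 1337, 2328 and 897.1. These values again did not overlap those of the resistant cells, and Bcl2 rose by 3.66 (SE 0.388, adjusted p = 1.39e-05). The P5 values of lines #3, #7 and #9, 1166, 1265 and 2044, lay beside the parental value of the same line. For lines #7 and #9 the labels also give 12 passages, so the timing is open there. P12 and parental cells differed by 0.29 (SE 0.388, adjusted p = 0.752).

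Bcl2 was the member with no overlap of groups in either comparison, against 5.99% of all genes tested for resistant and parental cells and 2.45% for P12 and resistant cells. State accounted for 86.3% of its sum of squares over parental, resistant and P12 cells, and cell line for 6.21%. The median gene tested had 19.8% for state and 35.8% for line.

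**Figure D1:**
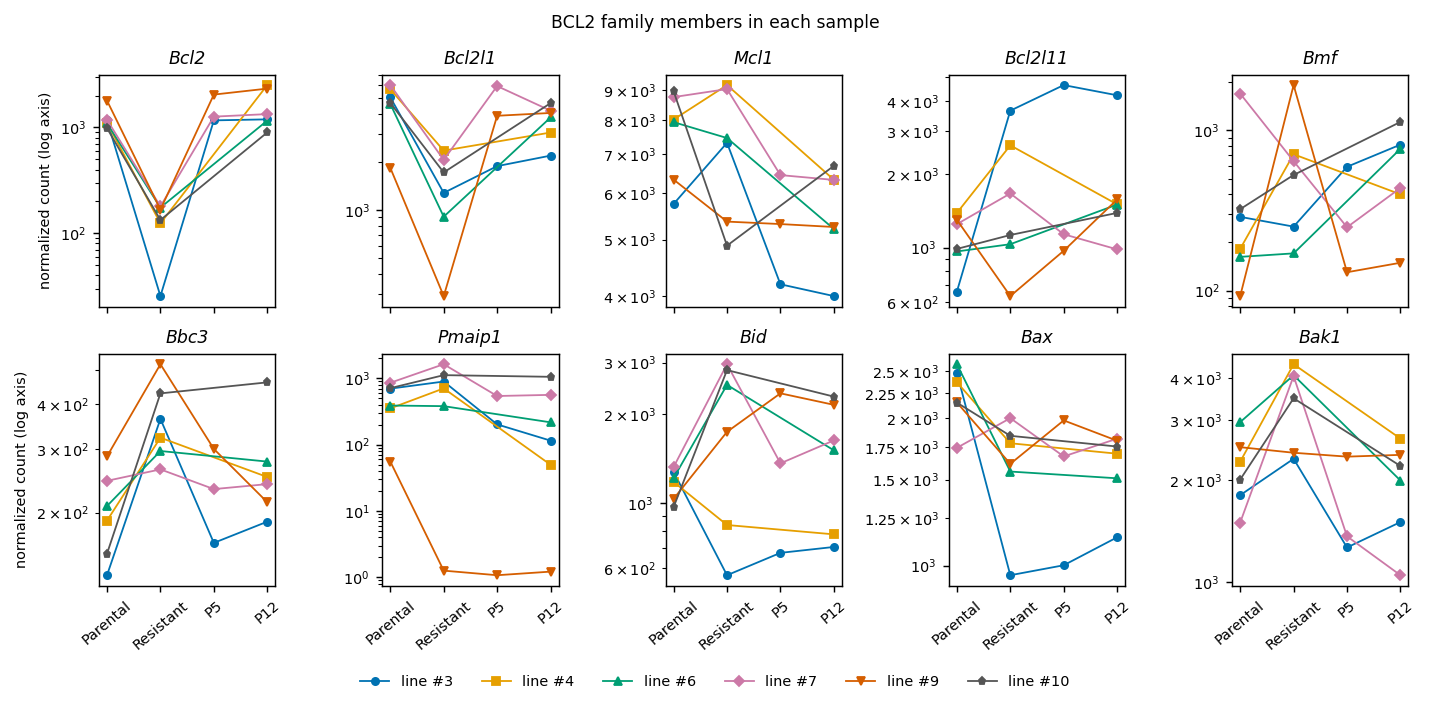
Normalized counts (log axis, a separate range for each gene) of the 10 members in parental, resistant, P5 and P12 cells, with 1 point per sample and a line joining the states of each cell line. Bcl2 and Bcl2l1 dip in the resistant state in all 6 cell lines, and Pmaip1 of line #9 falls from 55.6 to 1.25 and stays there.

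Bcl2l1 encodes BCL-XL, a second guardian of the mitochondrial membrane. Parental cells of lines #3, #4, #6, #7, #9 and #10 held 5053, 5673, 4594, 6024, 1834 and 4657 normalized counts. Resistant cells held 1279, 2348, 908.4, 2056, 290.3 and 1717. Parental line #9 lay below 2 of the resistant samples, so the groups overlapped, but each line fell against its own parental cells. Bcl2l1 fell by 1.87 on the log2 scale (SE 0.426, adjusted p = 0.00622), a level 3.66-fold lower, and the adjusted p stayed below 0.05 but rose above 0.01 in the 2 states alone and without line #3, #4, #6, #7 or #10 (up to 0.0402). P12 cells held 2185, 3046, 3781, 4169.95, 4035 and 4645. Bcl2l1 thus rose against resistant cells in 6 of 6 lines, by 1.58 (SE 0.426, adjusted p = 0.0309), with the smallest rise in line #4 (0.37) and the largest in line #9 (3.79). This call was lost in a fit of the 2 states alone and without line #3, #6, #7 or #10, where the adjusted p reached 0.130. With a block for the line the adjusted p was 0.0102. In line #3 the P5 and P12 values, 1879 and 2185, differed from the parental value by -1.43 and -1.21 on the log2 scale, while in line #9 they were higher by 1.08 and 1.14. Over the 6 lines P12 and parental cells differed by -0.30 (SE 0.426, adjusted p = 0.770).

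Mcl1, whose protein turns over quickly and which guards against BIM and NOXA, did not pass the test in any comparison. It ranged from 5752 to 8958 (median 7977) in parental, from 4882 to 9181 (median 7385) in resistant and from 4003 to 6682 (median 5788) in P12 cells. The resistant level was higher than the parental one in 3 lines and lower in 3, and the log2 difference was -0.10 (SE 0.180, adjusted p = 0.755). P12 cells were lower than parental cells in 6 of 6 lines, by -0.27 to -0.61, yet the mean difference of -0.44 (SE 0.180) had an adjusted p of 0.248, and 0.0872 when cell line was a block. In P5 of lines #3, #7 and #9 it measured 4193, 6443 and 5314, each below the parental sample of its line.

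Per kb of exon (union of GENCODE M21 exons), the makeup of the 3 antiapoptotic transcripts differed between the states. Mcl1 made up a median of 62.3% of their summed level per kb in parental cells (range 54.1% to 73.5%), 84.7% in resistant cells (75.8% to 94.4%) and 60.2% in P12 cells (54.3% to 63.6%). Bcl2l1 made up 34.6%, 14.9% and 35.8%, and Bcl2 3.19%, 0.693% and 5.91%. The lowest Mcl1 share in resistant cells was thus above the highest in parental cells, although the level of Mcl1 itself was not called different. These shares follow from the levels above and carry no test of their own.

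**Figure D2:**
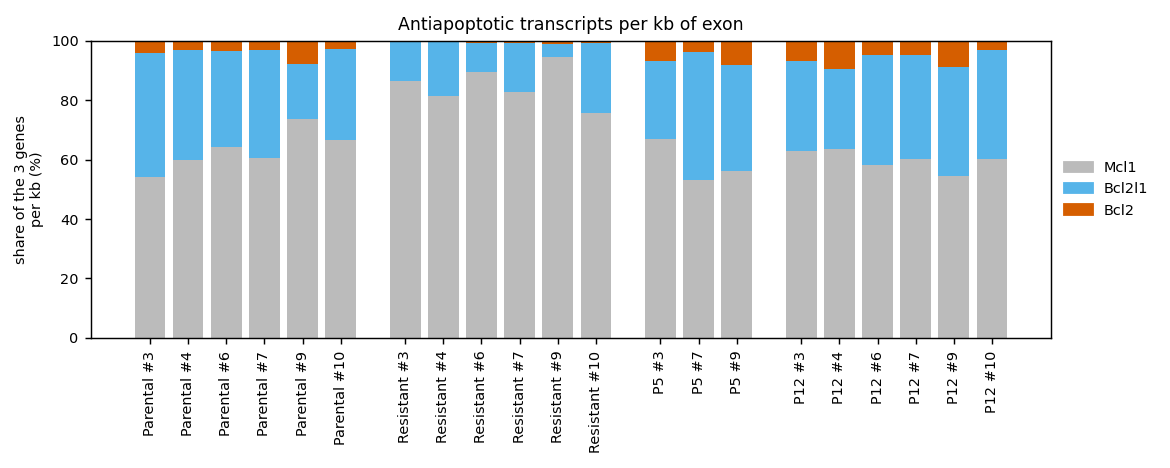
Stacked bars give, for each of the 21 samples, the share in percent of Mcl1 (grey), Bcl2l1 (blue) and Bcl2 (orange) in their summed level per kb of exon. Mcl1 makes up 75.8% to 94.4% in resistant cells and 54.1% to 73.5% in parental cells, and the P12 bars return to 54.3% to 63.6%.

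Among the BH3-only genes, Bbc3 was called different between resistant and parental cells. It encodes PUMA, a target of p53 and of FOXO factors that can bind all the guardians. In parental cells of lines #3, #4, #6, #7, #9 and #10 it measured 133.9, 190.02, 208.6, 245.2, 286.7 and 153.8. In resistant cells it measured 364.4, 323.2, 296.8, 263.8, 517.4 and 429.2. It was higher in 6 of 6 lines, although the groups overlapped, and rose by 0.86 (SE 0.251, adjusted p = 0.0264), or 1.81-fold. This call was lost without line #3, #4, #6 or #10, where the adjusted p reached 0.0976. With a block for the line the adjusted p was 0.0142. P12 cells ranged from 188.8 to 460.6 (median 245.7) and stood at -0.45 against resistant cells (SE 0.251, adjusted p = 0.344) and at 0.40 against parental cells (adjusted p = 0.451). Line #10 was the line whose P12 value, 460.6, was above its resistant value.

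Bcl2l11, which encodes BIM, ranged from 660.6 to 1387 (median 1118) in parental, from 632.9 to 3642 (median 1397) in resistant and from 983.5 to 4211 (median 1503) in P12 cells. Line #3 stood apart from the other lines, with 660.6 in parental, 3642 in resistant, 4636 in P5 and 4211 in P12 cells. The level in this line therefore stayed above the parental one in P12, by 2.67 on the log2 scale. Line #9 was the line with a lower value in resistant cells, 632.9 against 1299. Over the 6 lines the difference between resistant and parental cells was 0.51 (SE 0.435, adjusted p = 0.479), and 0.12 without line #3.

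Bmf, a BH3-only gene known to respond to loss of attachment, was the member with the largest share of variance that neither line nor state accounted for, 68.9%. It ranged from 92.5 to 1695 in parental, from 170.9 to 1916 in resistant and from 149.3 to 1129 in P12 cells. Line #9 went from 92.5 in parental to 1916 in resistant, 130.3 in P5 and 149.3 in P12 cells, whereas line #7 went from 1695 to 642.4, 248.7 and 437.3. The lines thus moved in opposite directions, and the difference between resistant and parental cells was 0.91 with an SE of 0.669 (adjusted p = 0.394).

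Pmaip1, which encodes NOXA, a BH3-only protein that binds MCL1, was set apart by line #9. Cell line accounted for 78.4% of its sum of squares and state for 8.50%, but without line #9, a choice made after seeing the data, they accounted for 40.2% and 35.5%. Outside line #9, it ranged from 352.2 to 858.5 in parental, from 380.8 to 1635 in resistant and from 49.7 to 1056 in P12 cells. In line #9 the parental cells held 55.6 normalized counts, and the resistant, P5 and P12 cells held 1.25, 1.07 and 1.21. Those 3 libraries lay under their floors of 3 reads, so the level there was at least 14.8-fold lower than in the parental cells. No direction can be read among the resistant, P5 and P12 values of line #9. In the other 5 lines the P12 value was lower than the resistant one, with log2 differences from -0.08 in line #10 to -3.80 in line #4. The mean difference over the 6 lines, -1.53 (SE 1.66), had an adjusted p of 0.679, and 0.140 with the block. The difference between resistant and parental cells was -0.29 and changed sign to 0.58 without line #9.

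Bid links death receptors to the mitochondrial pathway once caspase 8 has cut it. It ranged from 966.7 to 1323 in parental cells, the narrowest spread of this gene in any state, and from 566.8 to 2961 in resistant cells. Lines #6, #7, #9 and #10 were higher in resistant cells, by 0.76 to 1.55 on the log2 scale, while lines #3 and #4 stood at -1.17 and -0.49. P12 cells ranged from 707.3 to 2297. None of the 3 comparisons was called, with differences of 0.48, -0.23 and 0.25 (adjusted p = 0.480, 0.821 and 0.803).

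The effectors Bax and Bak1 stood on opposite sides of the parental level in resistant cells. Bax measured 2478, 2371, 2580.50, 1741, 2155 and 2154 in parental cells of lines #3, #4, #6, #7, #9 and #10. It measured 956.1, 1779, 1557, 2002, 1615 and 1843 in resistant cells, lower in 5 of 6 lines, with the exception of line #7. The difference of -0.49 (SE 0.192) was not called without the block (adjusted p = 0.0881) and was called with a block for the line (adjusted p = 0.0391) or after rescaling to the upper quartile (0.0474). In P12 cells it ranged from 1143 to 1818 and stood at 0.01 against resistant and at -0.48 against parental cells (adjusted p = 0.981 and 0.238).

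Bak1 measured 1806, 2266, 2964, 1499, 2501 and 2008 in the parental cells of these lines in the same order. In resistant cells it measured 2311, 4389, 4074, 4051, 2408 and 3484, higher in 5 of 6 lines, with line #9 near its parental level. The difference of 0.66 (SE 0.244) had an adjusted p of 0.0737, and was called with a block for the line (0.0216) and without line #9 (0.0413). In P12 cells Bak1 measured 1505, 2651, 1994, 1049, 2373 and 2201, lower than in resistant cells in 6 of 6 lines. It fell by 0.83 on the log2 scale (SE 0.244, adjusted p = 0.0460), close to the threshold, and with the block the adjusted p was 0.0110. The call was lost with no filter, after upper quartile rescaling, without a trend, in the 2 states alone, and without line #3, #4, #6, #7 or #10, where the adjusted p reached 0.170. Against parental cells P12 stood at -0.18 (adjusted p = 0.757).

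**Figure D3:**
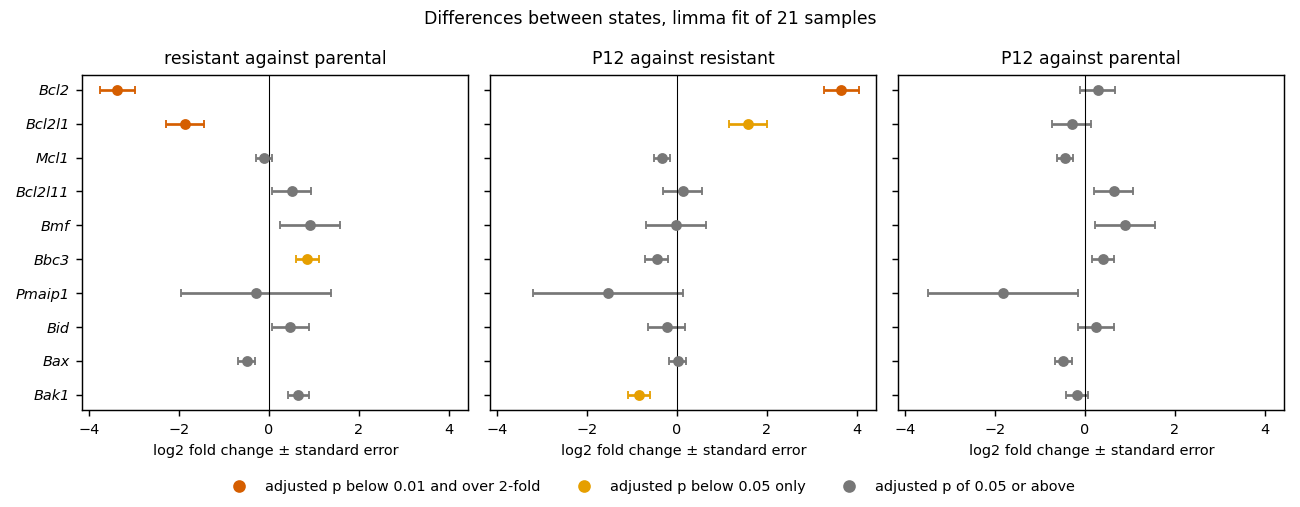
Log2 fold change and its standard error for the 10 members in 3 comparisons, from 1 limma fit of 21 samples. Color gives the call. Bcl2 lies at -3.38 and 3.66 in the first and second comparison and Bcl2l1 at -1.87 and 1.58, and in the third comparison none of the members was called.

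Between resistant and parental cells, 2 of the 10 members were called at an adjusted p below 0.01 with more than a 2-fold change, against 5.3% of all genes tested, and 3 were called at an adjusted p below 0.05, against 15.6%. With a block for the line, 5 were called at the second threshold, against 26% of all genes tested. The median log2 difference of the members was 0.19, beside -0.0049 over all genes tested. Between P12 and resistant cells, 1 member was called at the first threshold (2.13% of all genes) and 3 at the second (6.22%), with a median of -0.12 beside 0.022. Between P12 and parental cells limma called 0 members at either threshold (0.114% and 0.658% of all genes), 2 had an unadjusted p below 0.05, and 0 were called with the block (5.32% of all genes). These comparisons share samples, so they are not independent of each other.

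**Figure D4:**
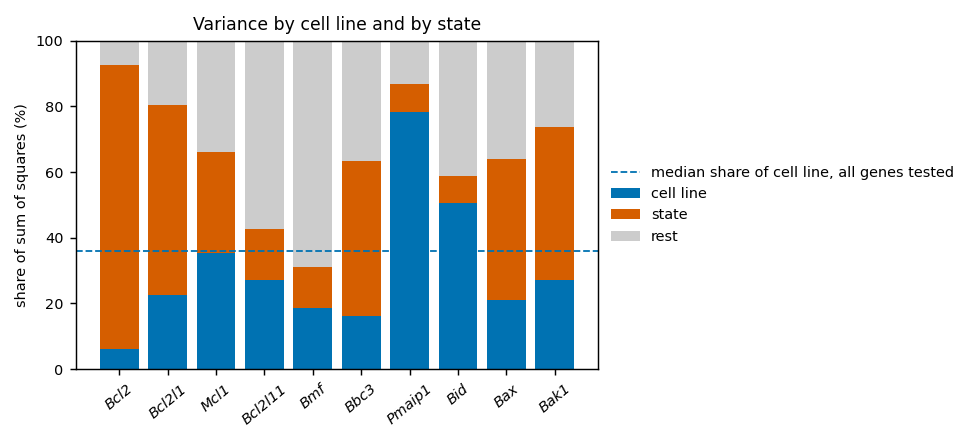
Shares in percent of the sum of squares of each member on the log2 scale that cell line (blue), state (orange) and the rest (grey) account for, over parental, resistant and P12 cells of 6 lines. State makes up 86.3% for Bcl2, cell line makes up 78.4% for Pmaip1 (40.2% without line #9), and the dashed line gives the median share of cell line over all genes tested, 35.8%.

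Compared per kb of exon, the median level in parental cells was highest for Bax (2610), Mcl1 (2334) and Bcl2l1 (1249), and Bak1 (895.2) and Bid (546.2) came next. Pmaip1 (199.3), Bcl2l11 (162.1), Bcl2 (123.9) and Bbc3 (109.9) followed, and Bmf (48.8) was lowest. The ranges over the 6 lines overlapped for Bax and Mcl1, for Bcl2l1 with both Bak1 and Bid, and among the last 5 genes in this order, so the order there is not fixed. In resistant cells the medians of Bcl2 and Bcl2l1 were 16.4 and 385.4 per kb, which put Bcl2 last of the 10.

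The genes whose pattern over the 21 samples was most like that of Bcl2, by Pearson's r on the log2 scale, were Elk3 (0.950), Fhl3 (0.944) and Ptpn9 (0.944). Those most like Bcl2l1 included Myo18a (0.908) and Arhgef3 (0.906), and those most like Bbc3 were Spag9 (0.857), Pld3 (0.835) and Pbxip1 (0.806). All points share the libraries and the 4 states, so these values describe the likeness only.

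Of 62 other genes of apoptosis, 55 were tested. Between resistant and parental cells 4 were higher and 7 lower at an adjusted p below 0.05, 11 in all, where 15.6% of all genes tested were called. With a block for the line 20 were called, where 26% of all genes were. The fit gave a median log2 difference of -0.017 over the 55. Fas, a death receptor, rose by 4.30 (SE 0.853, adjusted p = 0.00239), from 1.499 to 34.1 normalized counts in parental to 57.8 to 689.5 in resistant cells. The parental values of lines #3 and #10, 1.84 and 1.499, lay under 3 reads, so the size of the fitted change depends on the pseudocount. Ddit3, the stress factor CHOP, rose by 2.06 (SE 0.427, adjusted p = 0.00331).

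The genes that fell included some of the extrinsic pathway, which did not fall as a whole. Of 8 tested genes listed with the death receptors, 1 was higher and 2 were lower at an adjusted p below 0.05. Their median log2 difference was 0.037, and 15.6% of all genes tested were called. Casp8, the initiator caspase of death receptors, went from 1792 to 2546 in parental cells to 570.1 to 1127 in resistant cells, without overlap, and fell by 1.19 (SE 0.201, adjusted p = 0.000729), and Cflar, which encodes its inhibitor FLIP, fell by 1.11 (adjusted p = 0.00508). Tnfrsf10b, the mouse TRAIL receptor, fell by 1.17 (adjusted p = 0.00245). Other called genes, named after their values were seen, were Diablo among those that rose and Xiap, Huwe1 and Bcl2l15 among those that fell.

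Between P12 and resistant cells 4 of the 55 genes were called, and 10 with the block (6.22% and 12.7% of all genes). Casp8, at 1079.65 to 2297 in P12 cells, rose by 0.76 (SE 0.201, adjusted p = 0.0280) and Cflar by 1.02 (adjusted p = 0.0168). Diablo, named after its values were seen, fell by 0.68 (adjusted p = 0.0160). Fas stood at -2.39 against resistant cells (adjusted p = 0.110, and 0.0425 with the block). Between P12 and parental cells Tnfrsf10b was the 1 gene called, and 2 were called with the block (0.658% and 5.32% of all genes). It measured 634.4 to 1885 in P12 and 2138 to 4737 in parental cells and fell by 1.23 (SE 0.233, adjusted p = 0.0197).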

How the data were processed

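RNA of 21 samples was prepared with a stranded mRNA kit. The authors trimmed reads with Skewer, quantified mm10 transcripts by salmon 0.12, converted these to gene level (TXImport) and deposited a signal table of counts normalized with DESeq2 1.18. Raw counts could not be recovered (48.4% to 70.5% of low values fell on whole steps, tolerance 0.03), so no test for raw counts was run. The reads per library were estimated from these steps and cover counting error only. Sequencers are not assigned to samples, so no value within a sequencing batch can be given.

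A pseudocount of 1 was added before the log2, which understates changes of low genes. The 19300 genes that reached 10 in 3 or more samples were tested with limma 3.58.1 (R 4.3.3; lmFit, contrasts, eBayes with a trend) in 1 fit of 4 states, with Benjamini-Hochberg adjustment over all genes tested. Every adjusted p in the text comes from limma, in this fit unless a block, a rescaling or a left-out line is named beside it. P5 samples entered the fit but were not compared, since they came from 3 lines. Replicates are cell lines, 1 library each, and differences within a line pair its states by number. The main fit held no term for the line, so its SE and adjusted p ignore this pairing. The block takes it into account. Deviations of the same line correlated at 0.16 to 0.35 (mean 0.24) for resistant and parental samples. They correlated at 0.34 to 0.52 (mean 0.46) for P12 and resistant and at 0.0082 to 0.51 (mean 0.32) for P12 and parental samples. Between different lines the means were -0.046, -0.090 and -0.064. The steps were run on simulated data drawn with no effect of the line, so that run does not test the fit on matched lines. Promoters are RefSeq windows on GRCm38, and no sequence or position is given for Pmaip1. Of the other genes, those called at an adjusted p below 0.01 and over 2-fold were named, with Trp53, Dusp6, Spry4 and Etv4, and the 3 genes most like each member called between resistant and parental cells. Some items that these rules name are not reported here. The members and lists were chosen with earlier results of these data known. Alternatives were pseudocounts of 0.5 and 8, no filter, a mean of at least 100, upper quartile scaling, a block for the cell line, no trend, the 2 compared states alone, no P5 samples, and each line left out in turn.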

Additional observations from a re-analysis of the deposited data

Results flagged for a closer look

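In 30 groups of 6 samples (10 members, 3 states), 7 held a sample farther from the others, on the log2 scale, than the limit of Dixon's test. For independent groups chance gives about 1 in 20. These groups share their lines and libraries, so they are not independent, and the count was not tested against chance. Of the 7 samples, 4 came from line #9 and 3 from line #3. In line #9 the parental cells had the highest Bcl2 value (1793.6, next 1181.7), the lowest Bcl2l1 value (1833.8, next 4593.7) and the lowest Pmaip1 value (55.6, next 352.2), and the resistant cells the lowest Pmaip1 value (1.25, next 380.8). In line #3 the resistant cells had the lowest Bcl2 value (25.5, next 123.9) and the lowest Bax value (956.1, next 1557), and the P12 cells the highest Bcl2l11 value (4211, next 1575). No cause of these values was tested.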

How the results depend on the processing

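The direction and the call of Bcl2 between resistant and parental cells (adjusted p 1.55e-05 to 0.000475) and between P12 and resistant cells (7.18e-06 to 0.00241), and the fall of Bcl2l1 in resistant cells at an adjusted p below 0.05 (0.00185 to 0.0402), held under every alternative run. In the fit of the 2 compared states alone, 1 member was called at an adjusted p below 0.01 and over 2-fold between resistant and parental cells, where 2 were called with all states, and 1 member was called at an adjusted p below 0.05 between P12 and resistant cells. The first count ran from 1 to 2 when a line was left out (1 without line #3, #4, #6, #7 or #10), the second from 1 to 3 (1 without line #3, #6, #7 or #10), and the count at an adjusted p below 0.05 between resistant and parental cells from 2 to 4.

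With the cell line as a block, 5 members were called at an adjusted p below 0.05 between resistant and parental cells, and 20, 10 and 2 of the other apoptosis genes between resistant and parental, P12 and resistant, and P12 and parental cells, while the block raised the share of all genes called to 26%, 12.7% and 5.32%. The block changed no other count of members. In the 2 compared states alone the last 2 counts were 1 and 0. With a line left out, the 3 counts ran from 7 to 15, from 1 to 4 and from 0 to 2; the lowest came without line #6, without line #10, and without line #3, #4, #6 or #10. The cause of these shifts was not tested.

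Members that were not called changed sign as follows. Bmf in P12 against resistant cells was 0.074 after upper quartile rescaling and ran from -0.45 to 0.71 with a line left out. Pmaip1 in resistant against parental cells was 0.016 with a pseudocount of 8 and ran from -0.55 to 0.58. Mcl1 in resistant against parental cells ran from -0.19 to 0.052, Bcl2l11 in P12 against resistant cells from -0.10 to 0.32 and Bax in P12 against resistant cells from -0.034 to 0.045. Upper quartile rescaling moved the median of all genes in P12 against resistant cells from 0.022 to 0.11. Depth limits the Pmaip1 values of line #9 after resistance, which rest on about 1 read.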
